A study of Homo sapiens with 6 samples.

Results

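The genes described here are 10 transcription factor and early response genes of Cal27 cells, the AP-1 subunits FOS, FOSL1, FOSL2, JUN, JUNB and JUND and the immediate early genes EGR1, ATF3, IER3 and MYC. They were chosen by name from the 18678 genes of the deposited table, where each has 1 row, and all 10 were tested. Cal27 is an established line of tongue squamous carcinoma cells, and Cal27-shGRK2 is the same line with a short hairpin RNA against GRK2, a kinase that desensitizes activated G protein-coupled receptors. Both groups grew in the same serum-containing medium and were harvested below confluence for stranded mRNA sequencing. The labels name 3 libraries of Cal27-shGRK2 and 3 of Cal27, and they state neither a control vector in Cal27 nor the number of hairpins or clones. The deposited values of replicate 0 and replicate 1 of Cal27-shGRK2 were the same in all 18678 genes, less apart than sampling noise, and were counted as 1 sample, so 2 Cal27-shGRK2 libraries were compared with 3 Cal27 libraries. Separate cultures are not stated in the labels, so the p-values measure a spread that may be technical.

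AP-1 is a dimer of basic leucine zipper proteins. JUN proteins can pair with each other or with FOS proteins, whereas FOS proteins need a JUN partner to bind DNA. Several of these genes are immediate early genes, switched on by growth factors, serum or stress without new protein synthesis and read out from short-lived mRNAs. In squamous epithelium AP-1 acts both in keratinocyte differentiation and in the invasive behaviour of carcinoma cells.

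The values are FPKM, the authors' expression level per transcript length and per library size, whose depth is unknown. They summed to 590163 to 615468 per library in Cal27-shGRK2 and to 613330 to 644831 in Cal27. The targeted gene, GRK2, listed as ADRBK1, was at 17.3 and 16.6 FPKM in the Cal27-shGRK2 libraries, against 55.3, 59.4 and 55.8 FPKM in the Cal27 libraries (log2 fold change -1.69 ± 0.06, SE, limma adjusted p = 3.8e-11). Of the markers used to check the label, 5 of 5 squamous keratinocyte genes had values above 0 in every library. So did the 4 fibroblast markers in the table, so a value above 0 cannot tell the cell type. All 5 squamous keratinocyte genes passed as lower in Cal27-shGRK2, beside 14.6% lower over all genes tested. The summed levels of these 5 genes were 757 to 800 FPKM in Cal27-shGRK2 and 2227 to 2505 FPKM in Cal27, most of it KRT5. KRT5 had 740 and 773 FPKM in Cal27-shGRK2, against 2167, 2322 and 2073 FPKM in Cal27. KRT14 was at 0.235 and 0.160 FPKM in Cal27-shGRK2, against 19.3, 20.9 and 16.5 FPKM in Cal27. KRT14 and DSG3 (0.773 and 0.765 FPKM in Cal27-shGRK2) reached a mean of 1 FPKM, needed for testing, only through Cal27. The KRT6A call was lost when a single Cal27 library was left out. The 4 fibroblast markers in the table summed to 4.38 to 4.46 FPKM in Cal27-shGRK2 and 4.35 to 4.71 FPKM in Cal27. The endothelial marker CDH5 (7.01 and 6.80 FPKM in Cal27-shGRK2, against 3.57, 3.97 and 3.50 FPKM in Cal27) and the macrophage marker CD68 (4.30 and 3.52 FPKM in Cal27-shGRK2, against 0.766, 1.18 and 1.09 FPKM in Cal27) were higher in Cal27-shGRK2, and the part of other cell types in the results below was not tested. In such bulk samples fewer cells with a transcript and less of it per cell cannot be told apart.

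Cal27-shGRK2 cells had more FOSL1, FOSL2 and JUN mRNA and less JUNB, JUND, FOS, EGR1, ATF3 and MYC mRNA than Cal27 cells. FOSL1, already the most abundant of the 10 in Cal27, was 1.88-fold higher in Cal27-shGRK2, and EGR1 had the lowest ratio, at 0.395 of its Cal27 level. In limma, fitted to log2(FPKM + 1) over the 13377 genes that averaged 1 FPKM or more, 9 of the 10 genes passed an adjusted p of 0.05, 3 higher and 6 lower, and IER3 did not. Over all genes tested the same threshold was passed by 29.6%, with 15.0% higher and 14.6% lower. After rescaling every library to a common total, all genes called, Cal27-shGRK2 against Cal27, split into 2850 higher and 1512 lower, beside 2008 and 1949 as deposited, and the same 9 genes passed in the same directions. The median log2 fold change of the 10 genes was -0.39, beside -0.01 over all genes, and the median of its absolute size was 0.45, beside 0.14. In each of the 10 genes the Cal27-shGRK2 and Cal27 libraries were separate, as in 53.3% of all genes tested. For each of the 10 the exact two-sided permutation test gave p = 0.1, the smallest that 2 against 3 libraries can give.

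**Figure D1:**
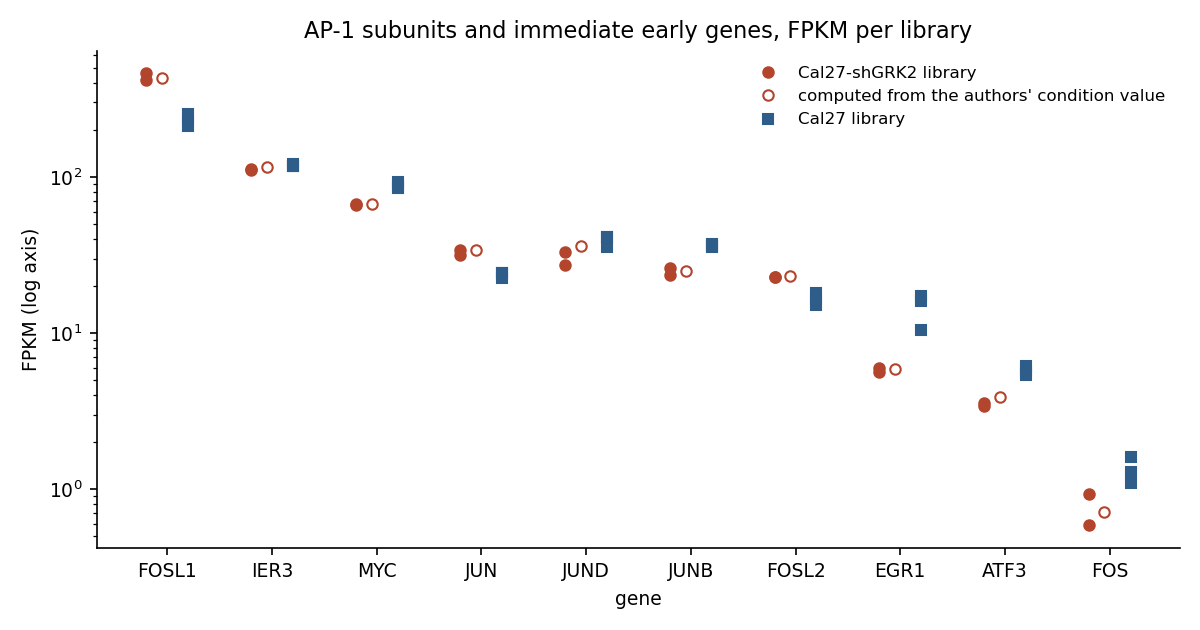
FPKM of the 10 genes in each library, on a log axis, with genes ordered by their mean in Cal27-shGRK2. Filled circles are the 2 distinct Cal27-shGRK2 libraries, open circles a further library computed from the authors' condition value, and squares the 3 Cal27 libraries. FOSL1 lies highest, at 416 and 461 FPKM in Cal27-shGRK2, and FOS lowest, at 0.588 and 0.931 FPKM.

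Levels spanned nearly the whole range of expressed genes. By mean FPKM, FOSL1 ranked 188 of 13377 in Cal27-shGRK2 and 399 in Cal27, whereas FOS ranked 13258 in Cal27-shGRK2 and 12638 in Cal27. In Cal27-shGRK2 the order was FOSL1, IER3, MYC, JUN, JUND, JUNB, FOSL2, EGR1, ATF3 and FOS, and only JUN and JUND overlapped among neighbours. In Cal27 it was FOSL1, IER3, MYC, JUND, JUNB, JUN, FOSL2, EGR1, ATF3 and FOS, where JUND overlapped with JUNB and FOSL2 with EGR1. The orders differ in the JUN family alone, in which JUN had the highest mean in Cal27-shGRK2 and the lowest in Cal27. In the further library computed from the authors' condition value, JUN was below JUND (33.9 against 35.9 FPKM).

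**Figure D2:**
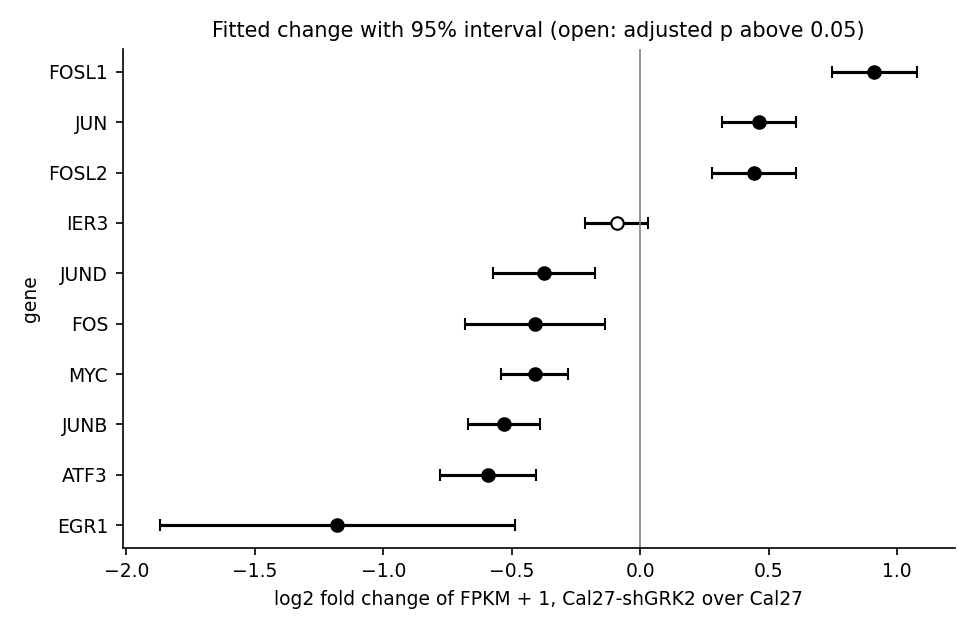
Log2 fold change of FPKM + 1, Cal27-shGRK2 over Cal27, for each gene, with the 95% interval of the limma fit. FOSL1, JUN and FOSL2 lie right of 0, IER3 (open symbol) spans it, and the other 6 genes lie left of it, EGR1 with the widest interval (-1.87 to -0.49).

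The known promoters of some of these genes hold binding sites for AP-1, CREB/ATF proteins or serum response factor, so windows from 250 bases before to 50 after the RefSeq transcription start (GRCh38.p14) were searched on both strands. Of the 10 genes, 7 had a window; FOSL1, IER3 and MYC had none. The motifs were TGANTCA (AP-1 site), found in 7.71% of 35116 windows of the same length, TGACATCA (a variant bound by JUN and ATF dimers) in 2.61%, TGACGTCA (cAMP response element) in 1.85%, the CArG box of serum response factor in 1.29%, GCGNGGGCG (EGR site) in 9.43% and CACGTG (the E-box bound by MYC) in 7.26%. No matches overlapped in the windows of these genes, and those of FOS and JUNB held none of these letters. Sites outside the windows were not searched, so a promoter without a match here may hold one further upstream. In the sequences below, each matched motif is in capitals. A match describes letters and says nothing of binding in these cells.

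Among the FOS family genes, FOSL1 (FRA-1) encodes a FOS protein without the strong transactivation domain of FOS that is often abundant in invasive carcinoma cells. It lies on chromosome 11 from 65892049 to 65900573 on the minus strand (GENCODE version 29, hg38, as for all genes here). FOSL1 had 416 and 461 FPKM in the Cal27-shGRK2 libraries, against 212, 254 and 232 FPKM in the Cal27 libraries. Every Cal27-shGRK2 library was well above the highest Cal27 library. The means were 438 ± 31.8 FPKM (SD, n = 2) in Cal27-shGRK2 and 233 ± 21.1 FPKM (SD, n = 3) in Cal27, a log2 fold change of 0.91 ± 0.08 (SE, limma adjusted p = 7.5e-07).

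FOSL2 (FRA-2), the related subunit on chromosome 2 from 28392448 to 28417312 on the plus strand, rose with a smaller change. It had 22.9 and 22.9 FPKM in the Cal27-shGRK2 libraries, against 15.2, 18.1 and 16.4 FPKM in the Cal27 libraries. The Cal27-shGRK2 libraries were nearly equal, and the Cal27 libraries lay below them with a 1.19-fold range. The log2 fold change was 0.44 ± 0.08 (SE, limma adjusted p = 4.1e-04). An intronic transcript on the same strand, RP11-373D23.2, lies within the gene and was at 0.605 and 0.405 FPKM in Cal27-shGRK2, against 0.116, 0.266 and 0.736 FPKM in Cal27. The FOSL2 window, chr2:28392608-28392907 on the plus strand, is shown because it holds the only AP-1 site among these windows, at position 5 (the start site is 1, and negative positions lie before it):
FOSL2 promoter: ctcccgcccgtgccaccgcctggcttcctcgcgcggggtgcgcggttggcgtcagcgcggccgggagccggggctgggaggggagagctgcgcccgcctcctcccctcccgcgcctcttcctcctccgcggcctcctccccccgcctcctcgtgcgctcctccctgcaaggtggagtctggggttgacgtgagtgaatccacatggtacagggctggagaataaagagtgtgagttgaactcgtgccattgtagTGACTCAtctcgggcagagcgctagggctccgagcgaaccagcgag

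FOS itself, the prototype immediate early gene (chromosome 14, 75278774 to 75282230, plus strand), was close to the detection filter. FOS had 0.588 and 0.931 FPKM in the Cal27-shGRK2 libraries, against 1.29, 1.10 and 1.62 FPKM in the Cal27 libraries. The groups did not overlap, but the higher Cal27-shGRK2 library lay nearer to the lowest Cal27 library than to its own partner. The log2 fold change was -0.41 ± 0.13 (SE, limma adjusted p = 0.024) on a scale that understates changes at such levels, and it was -0.75 with a pseudocount of 0.1. FOS reached the filter, with a mean of 1.10 FPKM, only through its Cal27 level. Its call was lost without the Cal27-shGRK2 library of replicates 0 and 1 (log2 fold change -0.27, limma adjusted p = 0.27) and without Cal27 replicate 2 (-0.32, limma adjusted p = 0.077). The remaining family member, FOSB, lay under the filter at 0.272 and 0.338 FPKM in Cal27-shGRK2 and 0.434, 0.429 and 0.282 FPKM in Cal27.

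Summed over FOS, FOSB, FOSL1 and FOSL2, the family reached 440 and 485 FPKM in Cal27-shGRK2, against 229, 274 and 250 FPKM in Cal27. FOSL1 alone made up 94.6% and 95.03% of that sum in Cal27-shGRK2, against 92.6%, 92.8% and 92.7% in Cal27. FOSL2 made up 5.20% and 4.71% in Cal27-shGRK2, against 6.64%, 6.61% and 6.57% in Cal27. FOSL1 thus set the level of the family sum in every library, and the ratio of FOSL1 to FOSL2 was 18.2 and 20.2 in Cal27-shGRK2, against 13.95, 14.0 and 14.1 in Cal27 (exact permutation p = 0.1, the smallest possible with these libraries).

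In the JUN family, JUN itself, a potent transactivator that can activate its own promoter, lies on chromosome 1 from 58780788 to 58784327 on the minus strand. JUN had 31.9 and 34.1 FPKM in the Cal27-shGRK2 libraries, against 24.3, 24.2 and 22.6 FPKM in the Cal27 libraries. Both Cal27-shGRK2 libraries were above all Cal27 libraries, and neither group spread by more than 1.08-fold. The log2 fold change was 0.46 ± 0.07 (SE, limma adjusted p = 7.8e-05). The JUN window (chr1:58783998-58784297, minus strand) holds the TGACATCA element at position -67, known from studies of JUN autoregulation:
JUN promoter: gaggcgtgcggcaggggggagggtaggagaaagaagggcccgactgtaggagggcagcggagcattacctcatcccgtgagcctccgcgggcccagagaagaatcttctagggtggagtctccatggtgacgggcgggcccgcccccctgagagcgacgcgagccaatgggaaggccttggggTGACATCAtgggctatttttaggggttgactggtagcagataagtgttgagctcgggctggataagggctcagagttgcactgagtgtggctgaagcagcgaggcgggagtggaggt

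JUNB, a subunit with weaker transactivation that can counter JUN, moved the other way. It had 23.7 and 26.0 FPKM in the Cal27-shGRK2 libraries, against 36.02, 37.3 and 35.4 FPKM in the Cal27 libraries. The Cal27 libraries were within 1.05-fold of each other and all above both Cal27-shGRK2 libraries. The log2 fold change was -0.53 ± 0.07 (SE, limma adjusted p = 1.9e-05), whereas the authors' deposited table gives JUNB a q-value of 0.125 and does not mark it as significant. JUNB, on chromosome 19 from 12791496 to 12793315 on the plus strand, shares its locus in the deposited table with 5 other genes, and HOOK2 overlaps it on the opposite strand. HOOK2 was at 23.9 and 24.5 FPKM in Cal27-shGRK2 and 21.4, 22.4 and 24.4 FPKM in Cal27 (log2 fold change 0.09 ± 0.07, SE, limma adjusted p = 0.38). The strand setting of the counting is not known, and reads of JUNB and HOOK2 may not be fully separated.

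JUND, the subunit that is usually expressed at steady levels and dampens proliferation in several cell types, was lower with less certainty. JUND had 27.4 and 32.9 FPKM in the Cal27-shGRK2 libraries, against 41.3, 41.3 and 35.4 FPKM in the Cal27 libraries. The groups were separated by the small gap between 32.9 and 35.4 FPKM. The log2 fold change was -0.37 ± 0.09 (SE, limma adjusted p = 0.0084), and the authors' deposited table gives a q-value of 0.0499. A further Cal27-shGRK2 library computed from the authors' condition value (3 times that value minus the columns at hand) would have 35.9 FPKM, inside the Cal27 range. With it the groups overlapped and the call was lost (log2 fold change -0.29, limma adjusted p = 0.053). Leaving out Cal27 replicate 1 (-0.34, limma adjusted p = 0.056) or the Cal27-shGRK2 library of replicates 0 and 1 (-0.25, limma adjusted p = 0.12) also lost it. JUND lies on chromosome 19 from 18279760 to 18281622 on the minus strand, and its window, chr19:18281573-18281872 on that strand, is shown for comparison with that of JUN, since it holds the cAMP response element, at position -200, in place of the JUN element:
JUND promoter: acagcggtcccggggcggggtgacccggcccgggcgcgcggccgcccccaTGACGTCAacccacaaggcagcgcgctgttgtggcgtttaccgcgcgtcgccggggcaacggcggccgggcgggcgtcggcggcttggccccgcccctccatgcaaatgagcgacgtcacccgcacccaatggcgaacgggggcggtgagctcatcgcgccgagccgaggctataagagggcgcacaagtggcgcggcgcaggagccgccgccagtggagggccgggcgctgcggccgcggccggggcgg

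The opposite movement of JUN and JUNB showed in every library. The ratio of JUN to JUNB FPKM was 1.35 and 1.31 in Cal27-shGRK2, against 0.673, 0.648 and 0.637 in Cal27, and 1.36 in the computed library. JUN was thus the more abundant of the pair in Cal27-shGRK2 and JUNB in Cal27. The ratio of JUN to JUND FPKM was 1.16 and 1.04 in Cal27-shGRK2, against 0.587, 0.585 and 0.638 in Cal27, but 0.945 in the computed library. As a share of the summed JUN, JUNB and JUND FPKM, JUN made up 38.4% and 36.7% in Cal27-shGRK2, against 23.9%, 23.5% and 24.2% in Cal27. JUNB made up 28.6% and 27.9% in Cal27-shGRK2, against 35.5%, 36.3% and 37.95% in Cal27. Without the computed library, the exact permutation p was 0.1 for both ratios and for both shares, the smallest these libraries allow.

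The JUN family sum itself was 82.9 and 93.1 FPKM in Cal27-shGRK2, against 101.6, 102.8 and 93.3 FPKM in Cal27. It nearly met between the groups, and its exact permutation p was 0.2. FOS family transcripts outnumbered JUN family transcripts 5.30 and 5.21 times in Cal27-shGRK2, against 2.26, 2.67 and 2.68 times in Cal27, on the FPKM scale. That ratio was 2.07 times as large in Cal27-shGRK2 by its mean (exact permutation p = 0.1, the smallest possible).

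**Figure D3:**
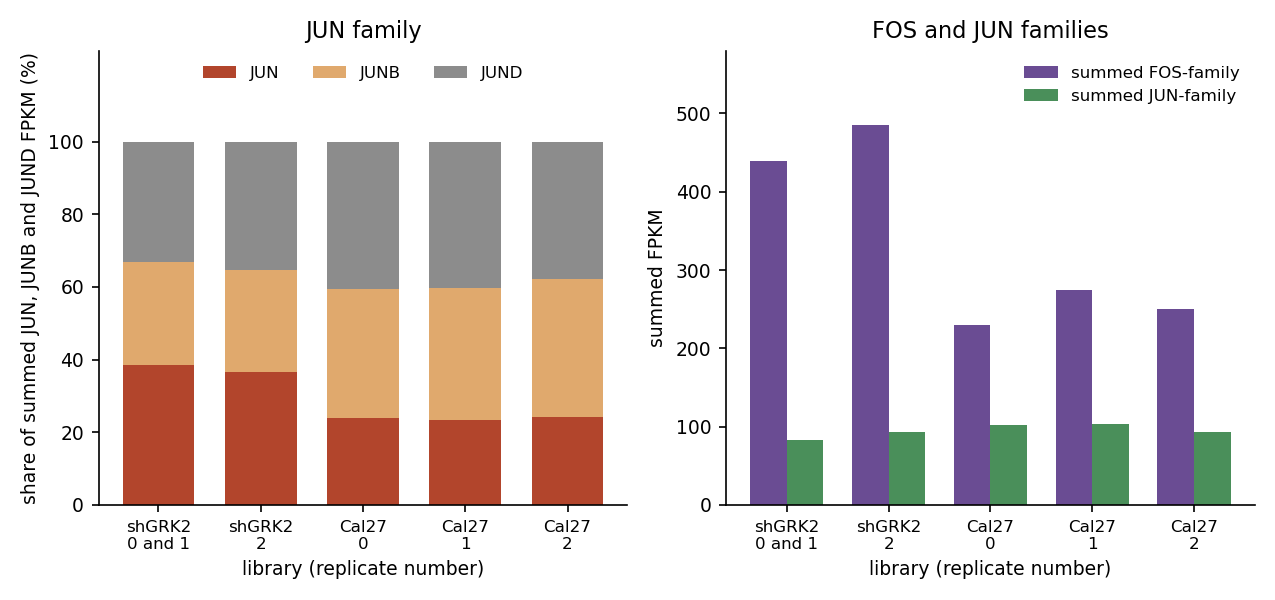
Left, shares of JUN, JUNB and JUND in their summed FPKM, in percent, for each library. Right, summed FPKM of the FOS family (FOS, FOSB, FOSL1 and FOSL2) and of the JUN family in the same libraries. The JUN share is 38.4% and 36.7% in Cal27-shGRK2 and 23.5% to 24.2% in Cal27, and the FOS family sum is higher in both Cal27-shGRK2 libraries.

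Outside the FOS and JUN families, EGR1, a zinc finger factor induced within minutes by serum and growth factors through ERK and serum response factor, lies on chromosome 5 from 138465490 to 138469315 on the plus strand. EGR1 had 5.62 and 5.98 FPKM in the Cal27-shGRK2 libraries, against 17.4, 10.5 and 16.2 FPKM in the Cal27 libraries. Cal27 replicate 1 was low within its group but still above both Cal27-shGRK2 libraries. The means were 5.80 ± 0.25 FPKM (SD, n = 2) in Cal27-shGRK2 and 14.7 ± 3.64 FPKM (SD, n = 3) in Cal27, with a log2 fold change of -1.18 ± 0.24 (SE, limma adjusted p = 0.035).

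The size of that EGR1 difference held up in every alternative (log2 fold change -1.05 to -1.39), but its call did not. It was lost without Cal27 replicate 0 or 2 (limma adjusted p = 0.063 and 0.15) and without the Cal27-shGRK2 library of replicates 0 and 1 or replicate 2 (0.16 and 0.14). The computed Cal27-shGRK2 library, at 5.90 FPKM, lay between the others, and with it the limma adjusted p was 0.0055. The EGR1 window, chr5:138465229-138465528 on the plus strand, carries 2 CArG boxes, at positions -105 and -83, and an EGR site at position -198:
EGR1 promoter: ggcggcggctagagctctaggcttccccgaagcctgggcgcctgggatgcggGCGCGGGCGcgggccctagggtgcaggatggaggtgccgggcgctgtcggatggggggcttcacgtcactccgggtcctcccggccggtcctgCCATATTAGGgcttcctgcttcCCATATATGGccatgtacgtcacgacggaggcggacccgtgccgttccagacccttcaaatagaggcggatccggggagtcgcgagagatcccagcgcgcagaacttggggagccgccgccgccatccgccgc

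ATF3, a stress-induced bZIP protein of the ATF/CREB family that can pair with JUN proteins, spans 212565334 to 212620777 on chromosome 1, plus strand. ATF3 had 3.55 and 3.40 FPKM in the Cal27-shGRK2 libraries, against 6.16, 5.41 and 5.68 FPKM in the Cal27 libraries. The groups were well apart, with a range of 1.14-fold within Cal27. The log2 fold change was -0.59 ± 0.09 (SE, limma adjusted p = 9.9e-05), and the computed library had 3.88 FPKM. Of the 2 starts in the promoter table, the upstream window (chr1:212565157-212565456, plus strand) holds the same TGACATCA letters as JUN, at position -123, which is why it is shown:
ATF3 promoter: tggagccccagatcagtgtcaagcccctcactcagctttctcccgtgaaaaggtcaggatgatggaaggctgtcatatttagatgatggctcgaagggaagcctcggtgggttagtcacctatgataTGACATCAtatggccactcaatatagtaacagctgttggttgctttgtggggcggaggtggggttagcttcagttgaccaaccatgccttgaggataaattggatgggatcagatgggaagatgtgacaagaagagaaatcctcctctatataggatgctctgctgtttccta

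MYC, the basic helix-loop-helix regulator of growth and ribosome production, lies on chromosome 8 from 127735434 to 127741434 on the plus strand. MYC had 65.7 and 67.4 FPKM in the Cal27-shGRK2 libraries, against 88.7, 92.3 and 85.5 FPKM in the Cal27 libraries. The spread was narrow in both groups, and the log2 fold change was -0.41 ± 0.06 (SE, limma adjusted p = 1.0e-04). Its mean FPKM fell by 25.1%, so this abundant mRNA lost more FPKM than any other of the 6 genes that fell.

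IER3, an immediate early protein that modulates survival and ERK signalling, lies on chromosome 6 from 30743199 to 30744554 on the minus strand. IER3 had 110.5 and 113 FPKM in the Cal27-shGRK2 libraries, against 118, 122 and 118 FPKM in the Cal27 libraries. The libraries did not overlap, yet the difference was small, with a log2 fold change of -0.09 ± 0.06 (SE, 95% interval -0.21 to 0.03, limma adjusted p = 0.27). The interval leaves room for a fall of 0.21 on the log2 scale and for a rise of 0.03. The antisense gene IER3-AS1 overlaps IER3 and was not analysed here.

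The spread between libraries of a group was widest for EGR1 and FOS among the 10 genes. Within Cal27 the highest library exceeded the lowest 1.65-fold for EGR1 and 1.46-fold for FOS, larger than in 96.7% and 94.1% of all genes tested. Within Cal27-shGRK2 the ratio was 1.58 for FOS, larger than in 97.5% of genes, but 1.06 for EGR1, larger than in 45.8%. FOS averaged only 1.10 FPKM, and these shares are over genes of every level. Whether its low level has a part in its spread was not tested. The ratio for JUND was 1.20 within Cal27-shGRK2 and 1.17 within Cal27, larger than in 87.7% and 68.1% of genes. A ratio of at least 1.5 was reached within Cal27-shGRK2 by FOS alone of the 10 genes and by 2.77% of all genes, and within Cal27 by EGR1 alone and by 4.68% of all genes. The median ratio of the 10 genes was 1.07 in Cal27-shGRK2 and 1.15 in Cal27, beside 1.07 and 1.12 over all genes tested. Cal27 replicate 1 was the lowest of its group for EGR1, FOS and ATF3, and in 25.9% of all genes tested. Replicate 1 was the highest of its group for FOSL1, FOSL2, MYC, JUNB, JUND and IER3, in JUND by a margin of under 1%. It also had the largest summed FPKM of the Cal27 libraries (644831). The share of all genes in which it was highest was not computed.

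**Figure D4:**
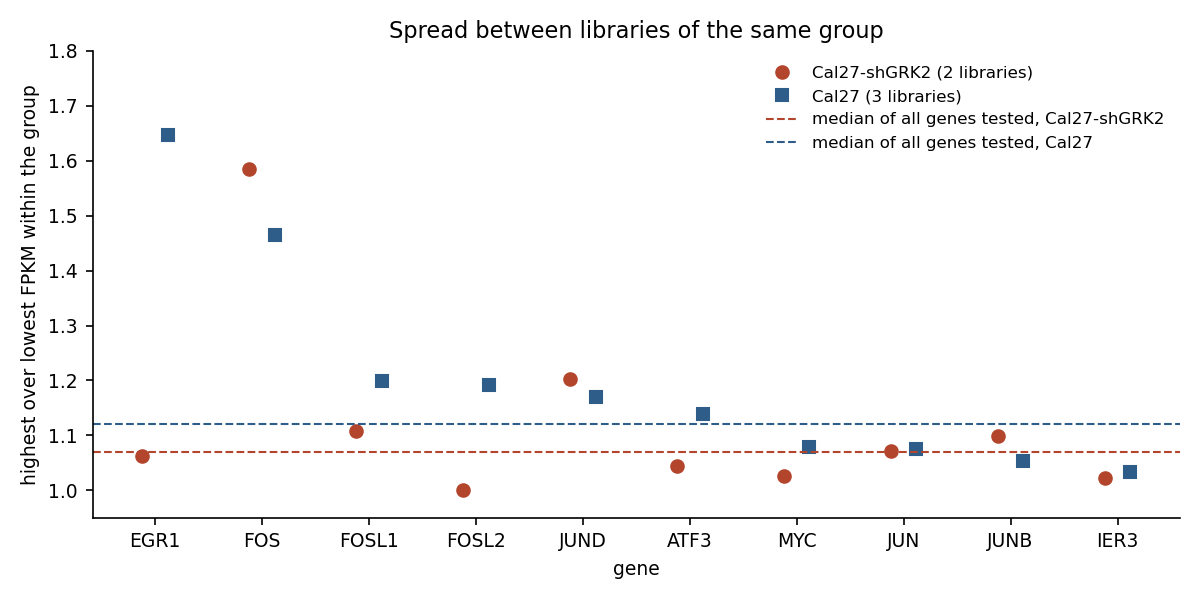
Highest over lowest FPKM within Cal27-shGRK2 (circles, 2 libraries) and within Cal27 (squares, 3 libraries) for each gene, with dashed lines at the medians of all genes tested. EGR1 in Cal27 (1.65) and FOS in both groups (1.58 and 1.46) stand above the rest, and the other points lie at or below 1.20.

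The authors' deposited table, whose condition value for Cal27-shGRK2 is not the mean of the columns at hand, gives all 10 genes the same direction and marks 8 as significant. Its log2 fold changes are 0.90 for FOSL1, 0.47 for FOSL2, 0.49 for JUN, -1.33 for EGR1, -0.84 for FOS, -0.67 for ATF3, -0.41 for MYC and -0.29 for JUND, the 8 that the authors' deposited table marks. Over all genes tested it marks 16.8%. JUNB (-0.55) and IER3 (-0.07, q-value 0.793) are the unmarked genes in the authors' deposited table, and of these JUNB passed in limma. The computed Cal27-shGRK2 library would hold 0.710 FPKM of FOS, 431.5 of FOSL1, 23.23 of FOSL2, 33.9 of JUN, 24.9 of JUNB, 116 of IER3 and 67.2 of MYC. These values, like those of EGR1 and ATF3, lie outside the Cal27 range, and JUND is the exception among the 10.

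The genes whose pattern over the 5 libraries was nearest to FOS were RMDN2, AC090498.1, FAM96A, RAB4A and COG7, with a root-mean-square difference of 0.04 to 0.06 on the log2(FPKM + 1) scale after centring. Those nearest to EGR1 were DDX60, CNTNAP3B, RP11-589N15.2, RHOV and HSPE1-MOB4, at 0.14 to 0.18. None of the 10 genes was among them. EGR1 and FOS also differed from each other, as the ratio of EGR1 to FOS FPKM was 9.56 and 6.42 in Cal27-shGRK2 and 13.5, 9.55 and 10.0 in Cal27, with overlapping groups.

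Other members of the immediate early and serum response programme moved in both directions. Of 36 such genes tested, 10 rose and 12 fell, while 14 missed the threshold, and the median log2 fold change was -0.12. These are 27.8% higher and 33.3% lower, beside 15.0% higher and 14.6% lower over all genes tested. EGR2, EGR3, EGR4 and NR4A3 were not analysed here, and NR4A1, NR4A2 and ARC lay under the filter. Those that rose most were HBEGF, an EGF receptor ligand (11.4 and 12.2 FPKM in Cal27-shGRK2, against 4.59, 4.90 and 4.58 FPKM in Cal27, log2 fold change 1.17), the zinc finger factor KLF6 (0.93), the kinase PLK3 (0.92) and the mRNA decay factor ZFP36L1 (0.60). Those that fell most were ID1, an inhibitor of basic helix-loop-helix factors (9.35 and 9.96 FPKM in Cal27-shGRK2, against 54.8, 54.0 and 54.3 FPKM in Cal27, log2 fold change -2.38), the antiproliferative gene BTG2 (-0.86), the MAP kinase phosphatase DUSP1 (-0.51) and the kinase SGK1 (-0.50). BTG2 also passed the filter only through Cal27, and with a pseudocount of 0.1 the BTG2 log2 fold change was -1.43.

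The 3 IER genes of that list, IER2, IER5 and IER5L, fell by 0.42, 0.45 and 0.32 on the log2 scale, each past the threshold, beside IER3, which did not pass. Serum response factor, SRF, the factor that binds CArG boxes, had 12.8 and 13.4 FPKM in Cal27-shGRK2, against 17.5, 19.1 and 17.5 FPKM in Cal27 (log2 fold change -0.43 ± 0.07, SE, limma adjusted p = 2.8e-04). CYR61 (CCN1), a matricellular gene and the most abundant of the list, was higher by 0.33. The IER genes, SRF and CYR61 were picked out after their values were seen.

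Among 17 other bZIP genes tested, partners of AP-1 or of its relatives, 2 were higher, 2 were lower and 13 did not pass, close to the shares over all genes. CREB5 had 2.70 and 2.98 FPKM in Cal27-shGRK2, against 0.919, 1.10 and 1.08 FPKM in Cal27 (log2 fold change 0.92), and the AP-1 repressor JDP2 rose by 0.44. BATF, an AP-1 factor best known from lymphocytes, had 0.521 and 0.541 FPKM in Cal27-shGRK2, against 1.41, 1.32 and 1.67 FPKM in Cal27 (-0.68). BATF reached the filter only through its Cal27 level, so its call is not independent of the filter. With a pseudocount of 0.1 the BATF log2 fold change was -1.30, and the CREB5 log2 fold change was 1.38. CEBPD was lower by a log2 fold change of -0.28 (limma adjusted p = 0.048), a call lost in 7 of 16 alternatives. The CEBPD log2 fold change was -0.11 without the Cal27-shGRK2 library of replicates 0 and 1 (limma adjusted p = 0.51) and -0.45 without its replicate 2.

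Of 20 upstream kinases and promoter factors tested, 8 (40%) were higher and 1 (5%) was lower, beside 15.0% higher and 14.6% lower over all genes tested, with a median of 0.13. The largest rises were in MAP3K1 (log2 fold change 0.70), a kinase above JNK, in the ternary complex factor ELK3 (0.57), in the ERK kinase MAP2K1 (0.37) and in the JUN kinase MAPK8 (0.34). MAP3K1 had 10.8 and 11.3 FPKM in Cal27-shGRK2, against 6.24, 6.53 and 6.45 FPKM in Cal27. RPS6KA5 (MSK1, -0.36) lost its call in 7 of 15 alternatives, and with a pseudocount of 0.1 the RPS6KA5 log2 fold change was -0.59. The count of 9 called was 5 without the Cal27-shGRK2 library of replicates 0 and 1 and 4 without its replicate 2.

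Genes known as AP-1 targets in epithelia changed in both directions, with 15 of 30 (50%) higher, 11 (36.7%) lower and 4 not past the threshold, beside 15.0% higher and 14.6% lower over all genes tested. Their median log2 fold change was 0.21, while their mean was -0.45. Those that rose included the ectonucleotidase NT5E (log2 fold change 1.17) and the hyaluronan receptor CD44 (1.05). CD44 had 881 and 936 FPKM in Cal27-shGRK2, against 396, 485 and 437 FPKM in Cal27. Lower were the cornified envelope precursors SPRR1A (-4.47) and SPRR1B (-3.53), the stress keratin KRT6A (-3.42) and the collagenase MMP13 (-3.34). MMP13 had 0.421 and 0.600 FPKM in Cal27-shGRK2, against 14.0, 13.5 and 15.5 FPKM in Cal27. In Cal27-shGRK2 replicate 2 SPRR1A has a listed value of 0, and with a pseudocount of 0.1 the SPRR1A log2 fold change was -6.92. Among the lower genes, SPRR1A, SPRR1B, SPRR3, MMP1, MMP10 and MMP13 passed the filter only through their Cal27 levels. Their calls, and the share of lower genes that counts them, are not independent of the filter. SPRR and KRT6 genes can share reads with their close relatives, and KRT6A no longer passed when a single Cal27 library was left out (limma adjusted p = 0.082, 0.076 and 0.083 without replicate 0, 1 or 2).

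Of 10 EGR1 targets and corepressors tested, 3 (30%) were higher and 3 (30%) lower, beside 15.0% higher and 14.6% lower over all genes tested, with a median of 0.07. The corepressor NAB2, itself induced by EGR1, had 5.70 and 5.48 FPKM in Cal27-shGRK2, against 8.94, 9.38 and 9.27 FPKM in Cal27 (log2 fold change -0.63). The growth factor chain PDGFA fell by 1.22 on the log2 scale, and the phosphatase PTPN1 fell by 0.20, a call lost in 9 of 16 alternatives. Fibronectin, FN1 (1.23), PDGFB (0.50) and TGFB1 (0.43) were higher.

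Among MYC targets the changes were nearly all falls. Of 33 tested, 1 rose and 14 fell, 18 missed the threshold and the median was -0.18, beside 15.0% higher and 14.6% lower over all genes. The amino acid transporter subunits SLC7A5 (log2 fold change -0.95) and SLC3A2 (-0.76), the nucleolar GTPase GNL3 (-0.43) and the chaperonin HSPE1 (-0.35) fell most, and the cyclin CCND2 (0.82) rose. SLC7A5 had 230 and 235 FPKM in Cal27-shGRK2, against 420, 501 and 429 FPKM in Cal27. The count of 14 lower was 9 after rescaling to a common total and 7 without the Cal27-shGRK2 library of replicates 0 and 1. Among 10 MYC partners and antagonists, MXD3 (0.27) alone passed, a call lost without either Cal27-shGRK2 library (limma adjusted p = 0.084 without that of replicates 0 and 1, and 0.057 without replicate 2), and the obligate partner MAX had a log2 fold change of 0.05 ± 0.06 (SE, limma adjusted p = 0.56).

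Heat shock genes respond to handling and culture stress, like several immediate early genes. Of 10 tested, 7 (70%) passed in limma, each of them lower, beside 15.0% higher and 14.6% lower over all genes tested, and the median was -0.31. DNAJB1 (-0.01), DNAJA1 (-0.03) and HSPA8 (-0.14) did not pass. The summed level of the 11 genes of the list, with HSPA6 under the filter, was 3041 to 3333 FPKM in Cal27-shGRK2 and 3691 to 3784 FPKM in Cal27. HSPA1B (-0.43), HSPB1 (-0.41) and HSPA1A (-0.39) fell most, with HSPE1 (-0.35), and without the Cal27-shGRK2 library of replicates 0 and 1 the HSPA1B log2 fold change was -0.26. HSPA1A and HSPA1B are near-identical copies whose reads may be split. Whether handling or stress has a part in the levels of FOS, EGR1 and ATF3 was not tested.

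**Figure D5:**
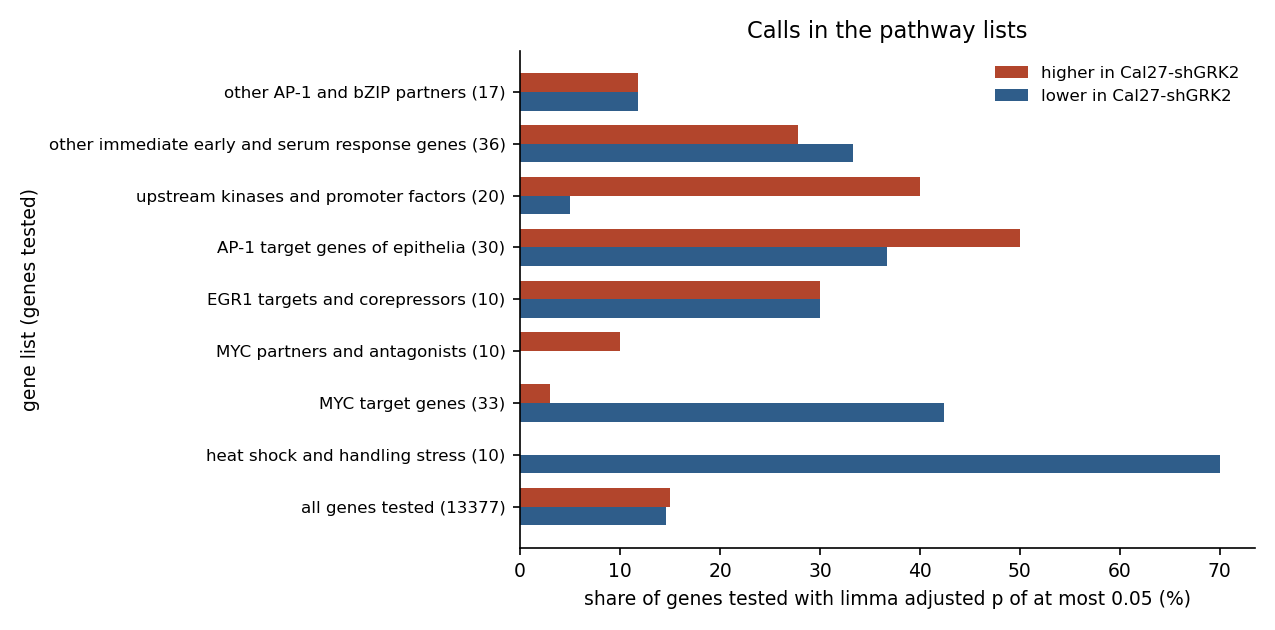
Share of genes tested, in percent, that were higher (upper bar) or lower (lower bar) in Cal27-shGRK2 at a limma adjusted p of at most 0.05, for each related list and for all genes tested, with the number tested in brackets. All genes stand at 15.0% higher and 14.6% lower, and MYC targets at 3.03% and 42.4%.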

How the data were processed

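Stranded mRNA libraries of Cal27-shGRK2 and Cal27 cells were sequenced. The submitters' processing notes list hg38 and the tools Cuffdiff 2.2.1, TopHat2 2.1.0 and Bowtie2 2.2.6, without their roles, and no source names the annotation or strand setting. The authors deposited FPKM for each library and each condition. The authors' log2 fold change, test statistic (a score), p-values and q-values are also deposited, per the file headers. Written values of 0.0001 and below were read as 0. Depth is unknown, so no counting interval is given.

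The authors' condition value equalled the mean of the columns in 13383 of 13383 genes for Cal27 (relative tolerance 1e-04) and in 52 for Cal27-shGRK2, which allowed a further library to be computed as an alternative. The 13377 genes averaging 1 FPKM or more in the 5 distinct libraries entered limma 3.58.1 in R 4.3.3 as log2(FPKM + 1) (trend, robust, 3 residual degrees of freedom), two-sided, with Benjamini-Hochberg adjustment over them. Tested on simulated data of the same 13377 genes, this fit found 92.5% of log2 changes of 0.5 (67 genes), 100% of those of 1 (67 genes) and 95.5% of those of 2 (66 genes). Of its calls 9.86% were false, above the share of 0.05 that the adjustment aims at. The simulation changed only these genes and drew independent noise. In the data 29.6% of genes were called, so the simulated rates may not carry over. The 10 genes and 8 related lists were chosen with earlier results of these data known. Named from each list are up to 4 called genes per direction with the largest changes and no overlap between groups; a few of these are not reported here. Pathway lists are described by counts, with no list test. Promoter windows are from RefSeq (GRCh38.p14).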

Additional observations from a re-analysis of the deposited data

How the results depend on the processing

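Across 16 alternatives none of the 10 genes nor GRK2 changed direction. FOSL1, FOSL2, JUN, JUNB and MYC passed in 16 of 16, ATF3 in 15 of 15, FOS in 13 of 15, JUND in 12 of 16, EGR1 in 11 of 16 and IER3 in 0 of 16; with a mean of at least 5 FPKM, FOS and ATF3 were not tested. The count of the 10 genes past the threshold was 6 to 8 without 1 library. EGR1 did not pass with a mean of at least 5 FPKM (log2 fold change -1.18, limma adjusted p = 0.053), and JUND did not with the computed library (-0.29). Leaving out 1 library gave log2 fold changes of -0.50 to -0.25 for JUND, -0.55 to -0.27 for FOS and -1.39 to -1.05 for EGR1; without the Cal27-shGRK2 library of replicates 0 and 1, the EGR1 log2 fold change was -1.14, and without Cal27 replicate 2, FOS had -0.32.

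Whether replicate numbers pair the libraries could not be decided. Deviations from the group means correlated at 0.08 across genes at most. With 2 Cal27-shGRK2 libraries their deviations are exact opposites, so a weak correlation cannot exclude pairing, and the number of the shared library is unknown. With a replicate block and that library numbered 0, JUND was lost (-0.34, limma adjusted p = 0.17), and numbered 1 the block changed no call of these genes.

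The number of all genes called, Cal27-shGRK2 against Cal27, was 3957, and 2600 to 4019 without 1 library (2600 without the Cal27-shGRK2 library of replicates 0 and 1). Calls among upstream kinases were 4 to 10 without 1 library and 5 with limma run without both trend and robust fitting. Those of MYC partners were 0 to 1 without 1 library and 2 with identical columns counted as 2 libraries. Those of MYC targets were 8 to 14 without 1 library, and those of bZIP partners were 2 with a mean of at least 5 FPKM. Of 40 related genes taken by the naming rule, 35 passed in every alternative that tested them. Fewer libraries or genes entered the leave-out and filter alternatives; otherwise the cause was not tested. With 2 libraries in Cal27-shGRK2 the spread of that group rests on 1 difference.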
